A study of Mus musculus with 38 samples.

Results

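The albumin gene cluster of adult mouse liver was described from every peak or island that overlapped a window of 150 kb on chromosome 5, chr5:90850000-91000000 in build mm9, in 12 peak lists. The window holds Alb (about 90889000 to 90906000), Afp (about 90920000 to 90940000) and Afm (about 90950000 to 90980000), and 102 of the 384017 regions in the lists overlapped it. The lists come from chromatin immunoprecipitation and sequencing (ChIP-seq) of 6 histone marks in whole liver of CD-1 mice of both sexes at 8 weeks of age; CD-1 is an outbred stock. Males and females were the only groups. They carried no genetic change and the labels name no treatment. For H3K4me1 and H3K4me3 there were 4 male and 3 female libraries, for H3K27ac and H3K27me3 3 of each sex, and for H3K36me3 and H3K9me3 2 of each sex. The files of one mark and sex were identical, so each list stands for pooled libraries: no value has a spread between animals, and no test was run. Reads inside the peaks of a list numbered from 1526754 to 20459697. They came to 19253391 in males and 12837285 in females for H3K27ac, and to 12562838 and 20459697 for H3K4me1. Values per kb were not scaled to these totals, so male and female densities are not on 1 scale. Whole liver mixes cell types, so fewer cells with a mark and less of the mark per cell cannot be told apart.

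The 3 genes encode related serum proteins of one family that arose by gene duplication. Alb encodes albumin, the main protein of blood plasma, made by hepatocytes. Afp encodes alpha-fetoprotein, the main serum protein of the fetus, which hepatocytes make in large amounts before birth and repress soon after it, and Afm encodes afamin, a plasma glycoprotein that binds vitamin E. Among histone marks, H3K4me3 lies at active promoters and H3K4me1 at enhancers and around promoters. H3K27ac lies at active promoters and enhancers, and H3K36me3 covers transcribed gene bodies. H3K27me3, laid down by Polycomb complexes, and H3K9me3, a mark of heterochromatin, lie over silent genes.

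The 250 bases before each gene start are shown because the marks at these starts carry the results. They are RefSeq sequences of build GRCm38.p6, plus strand, 5′ to 3′. Capitals mark GTTAAT, an arm of the site bound by the liver factor HNF1, TATAAA, letters of the TATA box motif, and CCAAT, those of the CCAAT box. Each was searched on both strands, so ATTAAC and ATTGG mark the minus strand, and no match overlaps another. The motifs were chosen after the sequences had been seen. Albfm1, an albumin superfamily gene that follows Afm, was added after its values had been seen.
Alb: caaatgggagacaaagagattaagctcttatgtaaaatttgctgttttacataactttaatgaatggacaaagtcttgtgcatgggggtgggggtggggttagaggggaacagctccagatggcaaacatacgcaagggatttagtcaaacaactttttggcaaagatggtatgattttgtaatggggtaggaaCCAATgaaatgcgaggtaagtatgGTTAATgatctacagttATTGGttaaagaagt
Afp: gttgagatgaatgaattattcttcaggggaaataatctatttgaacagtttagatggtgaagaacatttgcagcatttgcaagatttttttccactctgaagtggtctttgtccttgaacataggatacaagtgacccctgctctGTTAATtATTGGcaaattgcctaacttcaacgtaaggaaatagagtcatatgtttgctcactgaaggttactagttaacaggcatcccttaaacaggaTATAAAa
Afm: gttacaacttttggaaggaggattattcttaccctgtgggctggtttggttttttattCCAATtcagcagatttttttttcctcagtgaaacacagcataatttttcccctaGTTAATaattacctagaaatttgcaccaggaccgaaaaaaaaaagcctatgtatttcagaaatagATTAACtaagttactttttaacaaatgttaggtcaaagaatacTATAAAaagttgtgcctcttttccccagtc
Albfm1: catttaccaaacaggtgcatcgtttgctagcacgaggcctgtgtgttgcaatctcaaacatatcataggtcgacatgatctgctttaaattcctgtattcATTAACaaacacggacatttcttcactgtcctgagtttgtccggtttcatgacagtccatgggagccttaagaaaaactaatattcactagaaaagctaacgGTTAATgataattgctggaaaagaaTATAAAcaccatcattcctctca

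GTTAAT occurred in all 4 promoters, and in 6.43% of the 32851 RefSeq promoters searched over the same length. TATAAA occurred in Afp, Afm and Albfm1 but not in the bases searched for Alb, and in 12.4% of all promoters. It lay 30 to 25 bases before the start in Afm and 23 to 18 in Albfm1, but 7 to 2 in Afp, closer than a TATA box usually stands. Distances are from the RefSeq start, and bases after it were not searched. Whether Alb has a TATA box there was not tested. CCAAT occurred in Alb, Afp and Afm, and in 33.8% of all promoters. In Alb, GTTAAT lay 32 to 27 bases before the start, and in Afp 105 to 100 bases before it, 1 base from a minus-strand CCAAT. Promoter sequence was placed on mm9 where a read of the control IgG file matched it over 35 bases. The start of Alb fell at 90889897 and that of Afp at 90919741, from 1 read each, and that of Albfm1 at 90990236 from 7 reads. No read matched the promoter of Afm, which was therefore not placed. In GRCm38.p6, Afm starts 28.2 kb after Afp. The distance from Alb to Afp was 29.8 kb in both builds.

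The cluster carried the 4 active marks and neither silent mark, in both sexes. H3K4me1 had 27 peaks in each sex, H3K4me3 7 in males and 6 in females, H3K27ac 13 and 11, and H3K36me3 6 and 5 islands. H3K27me3 and H3K9me3 had 0 in all 4 lists. H3K27ac peaks covered 66.0% of the window in males and 61.3% in females, more than any other mark. H3K4me1 covered 41.9% and 45.5%, H3K36me3 42.9% and 31.9%, and H3K4me3 12.3% and 7.29%.

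**Figure D1:**
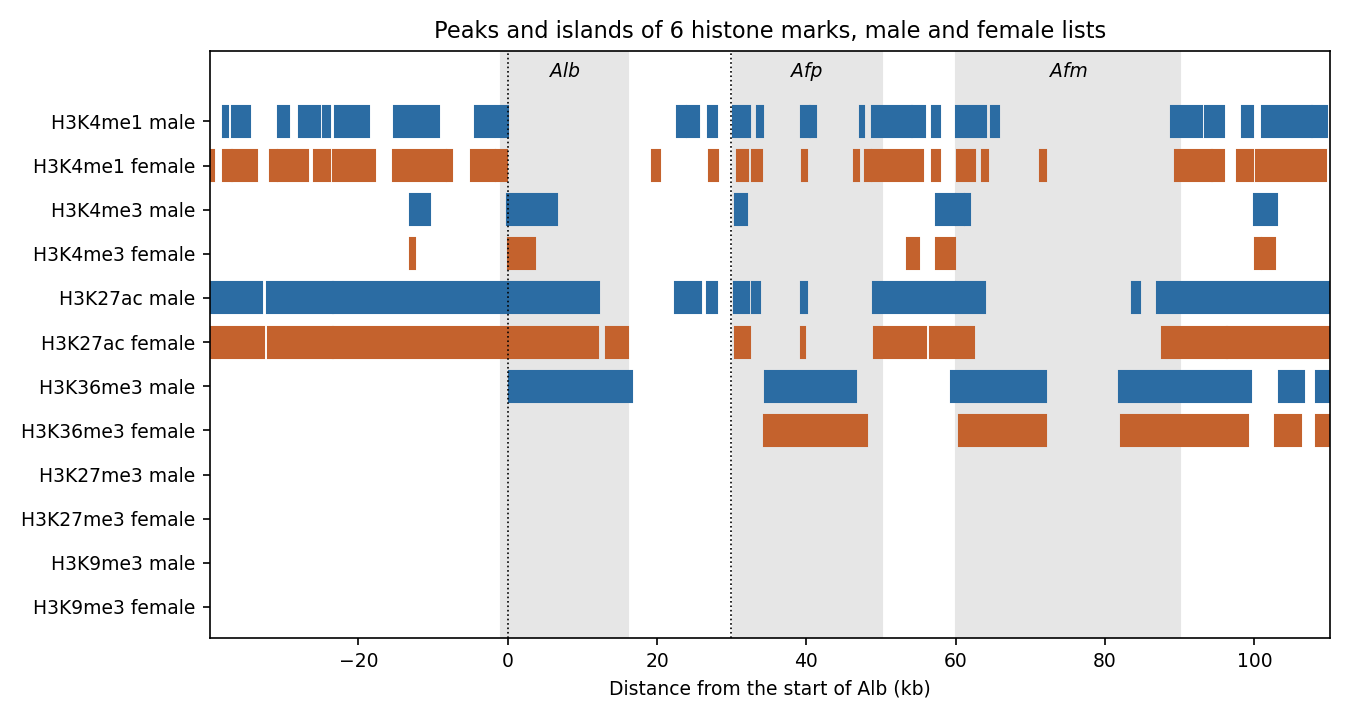
Each bar is a peak or island of the male (blue) or female (orange) list of a mark, by its distance in kb from the start of Alb. Grey areas are the spans of the 3 genes, and dotted lines the starts of Alb and Afp; the rows of H3K27me3 and H3K9me3 are empty.

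The autosomes were divided into 16459 windows of the same width and ranked by the reads or tags inside peaks. By H3K27ac the cluster ranked 15 in males and 8 in females. By H3K4me1 it ranked 181 and 410, by H3K4me3 221 and 1611, and by H3K36me3 912 and 1962. The cluster thus stood nearest the top by H3K27ac in both lists, and its ranks by H3K4me1, H3K4me3 and H3K36me3 were lower in the female lists.

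Alb lay inside a broad H3K27ac peak. It ran from 90866513 to 90902070 in males, with 8992 tags or 253 per kb, and from 90866450 to 90901979 in females, with 7640 tags or 215 per kb. Its width of 35.6 kb in males was reached by 0.0685% of that list, and 35.5 kb in females by 0.0209%. The peak held the start and most of the span of Alb, and its summit was not at the start: it lay at -12.8 kb in males and -11.2 kb in females. A pair of further peaks carried H3K27ac to the left edge of the window, and of the stretch from that edge to the Alb span the mark covered 98.3% in males and 98.6% in females.

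H3K4me3 at the Alb start differed in breadth between the lists. The male peak ran from 90889736 to 90896496, with 1117 tags or 165 per kb. The female peak ran from 90889871 to 90893504, with 341 tags or 93.8 per kb. They began 0.161 and 0.026 kb before the start and extended 6.60 and 3.61 kb into the gene, so that H3K4me3 covered 39.8% of the Alb span in males and 21.4% in females. The male peak was among the widest of its list, with 0.874% of peaks as wide, while 33.0% of peaks were as dense. For the female peak these shares were 5.72% and 54.8%. By the fold over control in the authors' deposited table, 15.4 for the male and 4.57 for the female peak, 47.4% of the male and 98.4% of the female list was as high or higher. A smaller H3K4me3 peak lay upstream. The male one ran from -13.1 to -10.5 kb of the start, with 202 tags or 77.2 per kb. The female one was narrower, from -13.0 to -12.5 kb, with 61 tags or 105.0 per kb. In males this peak held the summit of the broad H3K27ac peak, and in females it did not. H3K4me1 stopped at the start: the nearest peak had 104 tags per kb in males and 152 in females, and the mark covered 5.66% and 4.79% of the Alb span. The log2 ratios of these H3K4me1 peaks in the authors' deposited table are 0.08 and 0.10, with no call.

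**Figure D2:**
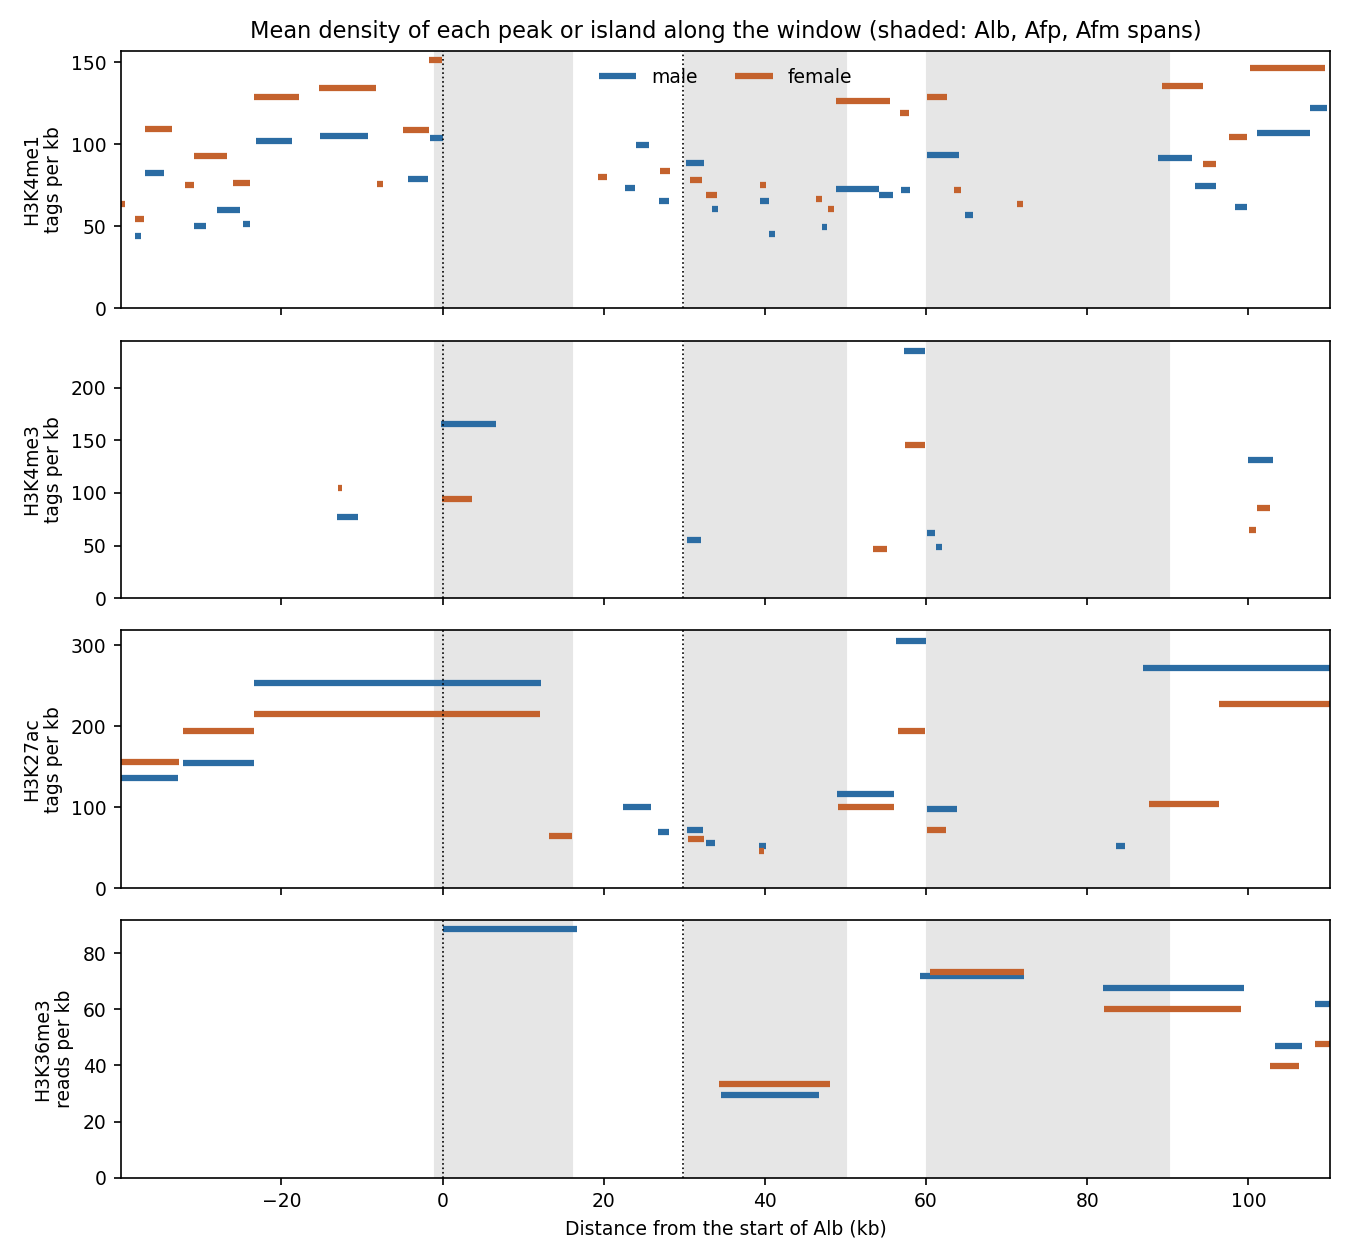
Bars give the mean tags or reads per kb of each peak or island of the 4 active marks, by distance in kb from the start of Alb, males in blue and females in orange; grey areas are the spans of Alb, Afp and Afm. Only the male list has H3K36me3 over Alb, at 88.7 reads per kb, where 19.2% of that list has no female partner. Both sexes have little H3K27ac over Afp. Densities are not scaled to the depth of a list.

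H3K36me3 covered Alb in the male list only. The male island ran from 90890000 to 90906599 and held 1473 reads, or 88.7 per kb, and it was rank 77 by density of 25517 islands. No island of the female list overlapped the Alb span. Islands without a female partner made up 19.2% of the male list, and the Alb island has no sex call in the authors' deposited table. The plasma protein genes Ahsg and Apoa2 also had an island within 5 kb after the start in the male list only. The control reads given for the same male island numbered 478, or 28.8 per kb, and only 0.0666% of the list had as dense a control, against a list median of 10.3 per kb. The authors' deposited table gives this island a fold over control of 1.95, and 69.9% of the list had a fold as high or higher. The Alb island was therefore near the top of its list by reads and in the lower part by fold over control.

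Control IgG reads of 1 library gave a background of the region. The labels give it as male CD-1 liver at 7 to 8 weeks of age, and it repeats an earlier record, so it is not a library of the same set as the histone marks. Over the Alb span they numbered 193, or 11.4 per kb, 2.59 times the autosomal mean of 4.38 per kb, and 2.55 times with 1 read kept per position and strand. Of 145395 autosomal stretches of the same width, 77 (0.053%) held as many reads. The density was 1.14 times the mean over Afp, 0.959 times over Afm and 1.33 times over the whole window. The Afm span takes in a run of 10.5 kb without an IgG read, which lowers its value. The densest background of the segments measured thus lay over Alb, the gene where the male and female lists differed in H3K4me3 breadth and in H3K36me3. IgG of females was not analysed here, and the part of this background in those differences was not tested.

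**Figure D3:**
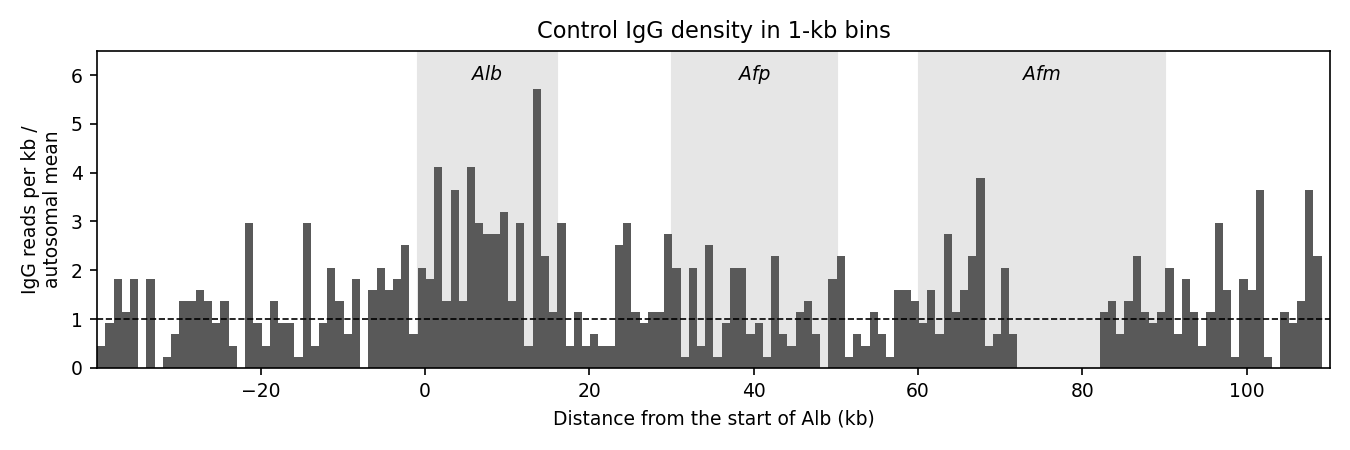
Bars give control IgG reads per kb in 1-kb bins, divided by the autosomal mean (dashed line at 1), by distance in kb from the start of Alb. The bins over the Alb span average 2.59, those over Afp 1.14 and those over Afm 0.959. The Afm span takes in 10.5 kb without an IgG read.

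Afp carried the 4 active marks in males, 3 of them in females, and no silent mark. In males a H3K4me3 peak lay 0.54 to 2.24 kb after the Afp start, with 94 tags or 55.3 per kb, and 86.1% of the list was as dense or denser. Its false discovery rate in the authors' deposited table is 25.4%, so H3K4me3 at Afp rests on a weak peak. The female list had no H3K4me3 peak over the Afp span. H3K27ac at the same place had 144 tags or 71.9 per kb in males and 118 tags or 60.6 per kb in females, about the same position and width in both. H3K27ac over the whole Afp span came to 19.3 tags per kb in males and 12.6 in females, against 194 and 175 over Alb. By these spans Afp had the least H3K27ac of the 3 genes in both lists, since Afm had 43.2 and 14.0. The Afm span leaves out the peak at its own start and takes in the edge of a broad peak that runs on past it. The order of Afp and Afm therefore depends on where the span is cut.

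H3K36me3 lay over the body of Afp in both sexes, at less than the density over Afm. The male island, 90924400 to 90936599, had 359 reads or 29.4 per kb, and 80.6% of its list was as dense or denser. The female island, 90924200 to 90937999, had 463 reads or 33.6 per kb, and that share was 49.1%. The authors' deposited table gives log2 male over female ratios of -0.37 and -0.43 for these islands, with no sex call. H3K4me1 covered 33.5% of the Afp span in males and 32.1% in females, and its peak at the start had 88.6 tags per kb in males and 77.9 in females, with 26.2% and 64.9% of the lists as dense or denser.

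Between Alb and Afp the lists differed in which peaks were present. The male list had H3K27ac peaks from -7.48 to -4.01 kb of the Afp start, with 349 tags or 101 per kb, and from -3.11 to -1.78 kb, with 92 tags or 69.02 per kb. The female list had no H3K27ac peak between the 2 spans. In the authors' deposited table the log2 ratios of the male peaks are 0.36 and 0.44, below the call threshold. A pair of H3K4me1 peaks of 93 and 162 tags lay under the first of them and had no partner in the female list. Their false discovery rates in the authors' deposited table are 0.8% and 20.35%. The female list in turn had a H3K4me1 peak of 88 tags or 80.3 per kb, from -10.5 to -9.45 kb of the Afp start. It had no male partner, and the authors' deposited table gives it a log2 ratio of -0.50 and a false discovery rate of 30.0%. Peaks without a partner made up 21.2% of the male H3K27ac list. For H3K4me1 they made up 15.2% of the male and 28.4% of the female list. The interval between Alb and Afp is known for enhancers that act on Afp, and whether these peaks mark them was not tested.

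The densest H3K4me3 of the cluster lay near the start of Afm. A H3K4me3 peak 27.5 to 30.1 kb after the Afp start, which in GRCm38.p6 spans the distance at which Afm begins, had 614 tags or 235 per kb in males. Its female partner had 366 tags or 146 per kb. These were the densest H3K4me3 peaks of the window in each list, with 7.47% and 37.2% of the lists as dense or denser. H3K27ac at the same place had 1108 tags or 305 per kb in males, rank 531 of 40903, and 646 tags or 194 per kb in females. These densities are not scaled to depth, and the authors' deposited table gives the peaks log2 ratios of 0.27 and 0.26, with no call. The H3K4me3 peak there was thus denser than that at the Alb start in both lists and narrower, at 2.61 kb against 6.76 kb in males.

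The body of Afm held H3K36me3 in both sexes. The first island, 90949200 to 90961999 in males and 90950400 to 90961999 in females, had 921 and 852 reads, or 71.95 and 73.45 per kb. The second began at 90971800 and 90972000 and had 67.7 and 60.2 reads per kb. By density the first female island was rank 64 of 19057. The islands were alike in position between the sexes, and the authors' deposited table gives log2 ratios of -0.08 and -0.09 for the first and 0.03 and 0.02 for the second. The stretch between the 2 islands, which has no H3K36me3 in either list, holds the longest run of the window without an IgG read, 10.5 kb from 90961575 to 90972050, where 45.9 reads would lie at the autosomal mean. Whether reads can be aligned there was not tested.

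The right side of the window, after the Afm span, was again densely marked. H3K27ac covered 100% of it in males and 99.9% in females, with 272 and 188 tags per kb. The male peak from 90976795 to 91000829 had 6532 tags or 272 per kb, and the female peak from 90986281 to 91000918 had 3317 tags or 227 per kb. The start of Albfm1 lay inside both. H3K4me3 there had 405 tags or 131 per kb in 1 male peak, and 55 and 143 tags, or 64.4 and 85.2 per kb, in 2 female peaks. Albfm1 thus had H3K4me3 density between those of Afp and Alb in the male list, and below Alb in the female list.

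The window and its surroundings were free of silent marks. The nearest H3K27me3 islands left a gap of 520.4 kb around it in males and 488 kb in females, and the nearest H3K9me3 islands a gap of 1538 kb and 1520.8 kb. Before the window, H3K27me3 ended 288 kb from its edge in males and 265 kb in females, and after it the mark began 82.4 and 72.8 kb from the edge. Lack of silent marks was common among windows of this width: 37.8% had no H3K27me3 island in males and 39.7% in females, and 59.6% and 45.8% had no H3K9me3 island. No island of either mark in any list was found in 3092 windows (18.8%). Among the 123 windows in the highest 1% by H3K27ac in both lists, 63 (51.2%) had none. Afp, though repressed after birth, thus shared with Alb the absence of H3K27me3 and H3K9me3 islands.

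The sex ratios of the cluster were read from the authors' deposited table, where a positive log2 ratio is higher in males and a call needs a ratio of at least 1 with a p-value below 0.001. These p-values compare pooled libraries. Of the 7 H3K4me3 peaks in the male list 2 were called male, where the background of male calls was 4.46% of the list, and of the 6 in the female list 2 were, against 1.34%. Of 27 male H3K4me1 peaks 1 was called male, against 8.21%. H3K4me1 in the female list had 0 calls of 27, against 5.13% called in either direction. H3K27ac had 0 of 13 and 0 of 11, against 2.6% and 3.63%, and H3K36me3 0 of 6 and 0 of 5, against 0.592% and 0.457%. The calls in the cluster were all male, and 4 of the 5 were of H3K4me3. At a lower log2 threshold of 0.5, with the same p, 6 of 7 and 4 of 6 H3K4me3 peaks passed, against 12.9% and 9.18% of the lists in the authors' deposited table. For H3K4me1 they were 6 of 27 and 2 of 27, against 23.3% and 17.3%, a share near or below the background. For H3K27ac they were 2 of 13 and 2 of 11, against 8.76% and 10.9%, and for H3K36me3 1 of 6 and 0 of 5, against 1.81% and 2.3%.

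The called H3K4me3 peaks lay at 3 places. At the Alb start the authors' deposited table gives log2 ratios of 1.46 (p = 1.02e-75) for the male peak and 1.42 (p = 2.67e-60) for the female peak. Just after the Afm start region, a male peak of 60 tags at 90949996 to 90950966 has a ratio of 1.09 (log2) in the authors' deposited table. Its false discovery rate there is 12.8%. At the Albfm1 start, the female peak of 55 tags has 1.31 (p = 6.65e-09) in the authors' deposited table, while the male peak over the same place has 0.98 and no call. The strong peak at the Afm start has 0.73 and 0.72 in the authors' deposited table, also with no call. The called H3K4me1 peak, of 59 tags at 90954669 to 90955708, has 1.06 and a false discovery rate of 12.1% in the authors' deposited table. Its call is lost, at 0.993, when ratios are centred on the peaks present in both lists.

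The H3K4me3 ratios of most peaks leaned to males. By the authors' deposited table the log2 ratio was above 0 in 7 of 7 male-list peaks, with a median of 0.95, where 58.3% of the whole list was above 0 and its median was 0.08. In the female list it was above 0 in 5 of 6, with a median of 0.77, against 47.2% and -0.02. Peaks of plasma protein genes leaned both ways. In the authors' deposited table the placed genes, such as apolipoproteins and fibrinogen chains, have medians of 0.22 and 0.24. They run from -0.44 at Apoa1 to 0.93 at Fgb in the male list, and from -0.18 to 0.94 in the female list. Apoa1, Apob, Hpx and the denser start of Apoa2 lie below 0 in both lists. The peaks of genes of other cell types lie between 0.54 and 0.71 in males and between 0.45 and 0.56 in females in the authors' deposited table, without a call. H3K4me1 medians in the authors' deposited table were 0.18 and 0.02, beside list medians of 0.16 and -0.09. For H3K27ac they were 0.01 and -0.16 in the authors' deposited table, beside -0.01 and -0.12, and for H3K36me3 0.03 and -0.08, beside 0.05 and -0.04. The medians of H3K4me1, H3K27ac and H3K36me3 thus lay near those of their lists.

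Ratios of one mark differed along the cluster. For H3K27ac, the authors' deposited table gives -0.73 and -0.82 to the pair of male-list peaks farthest before Alb, the most female-ward of the mark, and -0.28 to the broad Alb peak. It gives 0.27 to the Afm start and 0.10 to the peak over Albfm1. The sign changed more than once along the cluster: the authors' deposited table gives 0.36 and 0.44 to the male peaks between Alb and Afp, -0.13 at the Afp start, -0.29 between Afp and Afm and -0.31 to a peak of 59 tags inside Afm. For H3K36me3 the Alb island has 0.82 (p = 1.81e-35), below the call threshold, while the Afp island has -0.37 and the Afm islands -0.08 and 0.03, in the authors' deposited table. H3K4me3 and H3K36me3 over Alb leaned to males and H3K27ac over Alb to females.

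**Figure D4:**
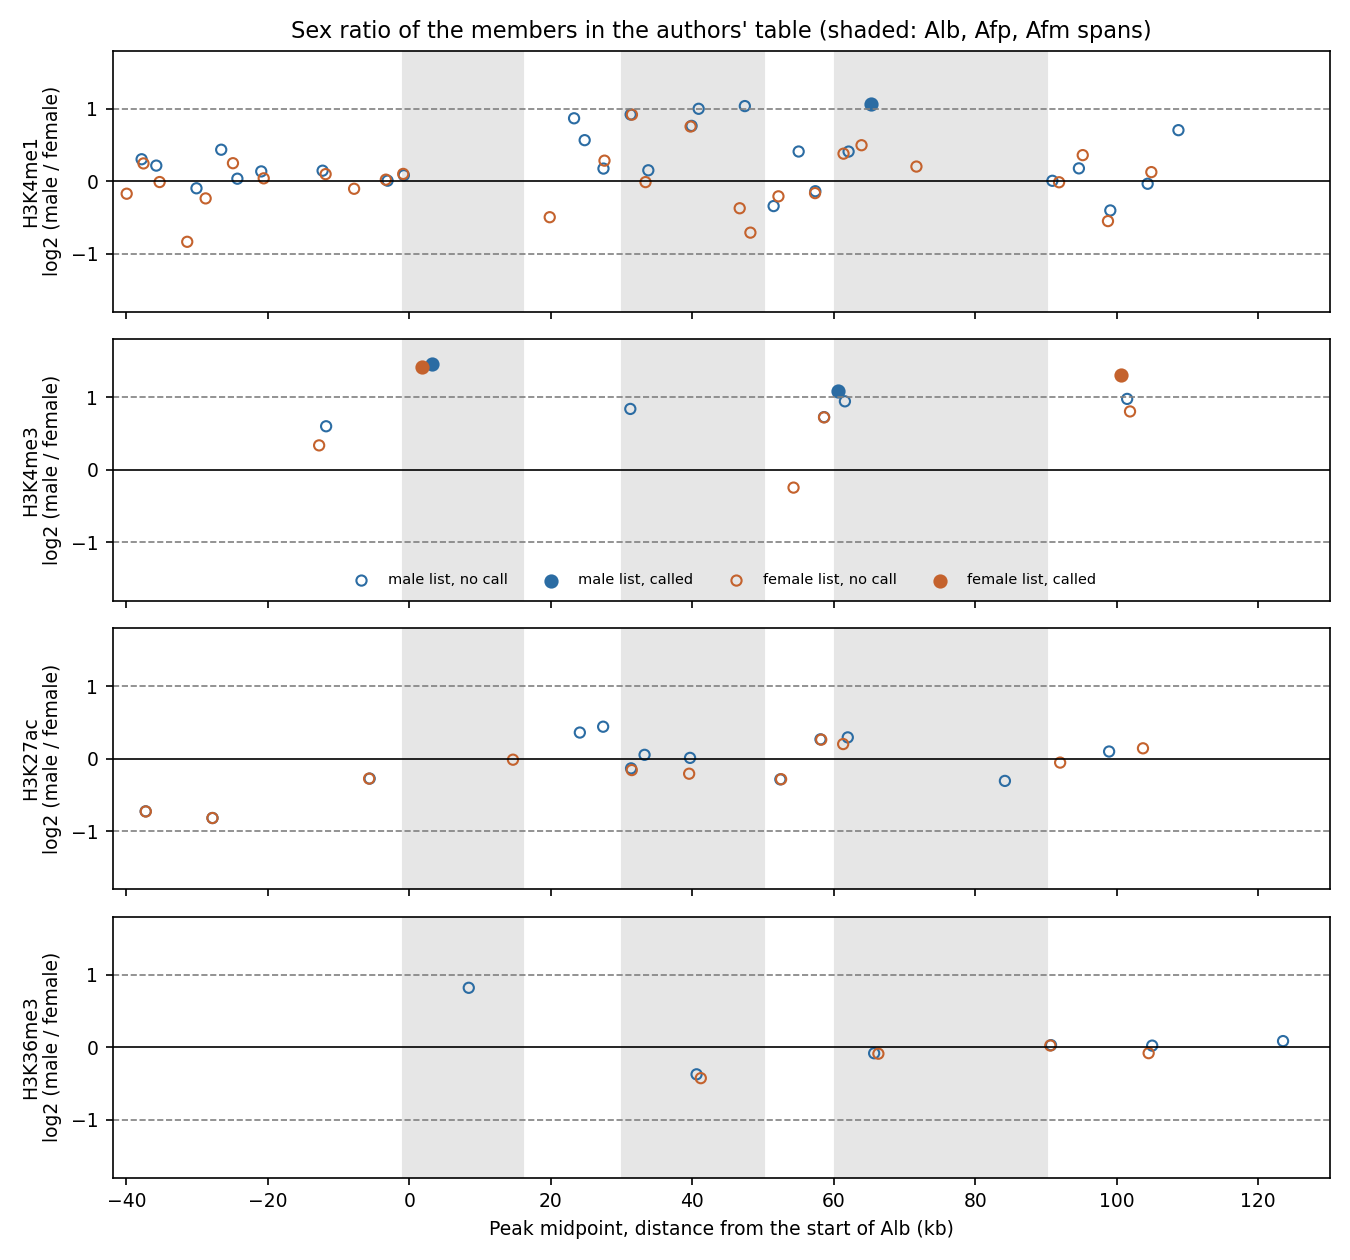
Points give the log2 male over female ratio of each peak or island in the authors' deposited table by its midpoint in kb from the start of Alb, for males (blue) and females (orange), filled where called; dashed lines mark ratios of 1 and -1. All H3K4me3 points but 1 lie above 0.

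Peaks with no overlapping peak in the other sex made up 3 of 7 male and 1 of 6 female H3K4me3 peaks, where the backgrounds were 8.96% and 18.4%. These were weak peaks. In the authors' deposited table the male ones have false discovery rates of 25.4%, 12.8% and 100%, and the female one 17.0%. The H3K4me3 peaks with a partner have at most 6.4%. They made up 4 of 13 and 1 of 11 H3K27ac peaks, against 21.2% and 11.6%. For H3K4me1 they were 5 of 27 and 7 of 27, against 15.2% and 28.4%, and for H3K36me3 1 of 6 and 0 of 5, against 19.2% and 6.99%. A peak missing from a list can lie below the caller's threshold there: the male-only Afp peak of H3K4me3 has 0.84 (log2) and no call in the authors' deposited table.

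Other liver genes set a scale for these values, at starts placed on mm9 in the same way. Of 12 genes for plasma proteins 10 were placed, among them Apoa1 and Apob, apolipoproteins of high and low density lipoprotein, Fga, Fgb and Fgg, the fibrinogen chains, and Rbp4, the retinol carrier. All 10 had H3K4me3 and H3K27ac within 1 kb of the start in both lists and no H3K27me3 or H3K9me3 there, and 9 in males and 7 in females had H3K36me3 within 5 kb downstream. None had a sex call for H3K4me3, H3K27ac or H3K36me3 in the authors' deposited table. Their densest H3K4me3 peaks ran from 224 to 382 tags per kb, median 287, in males and from 149 to 372, median 268, in females. The Alb peak, at 165 and 93.8, was below the lowest of them in each list, and Afp lower still. This order is by density, a mean over the width of a peak, and not by total tags. In H3K27ac they ran from 219 to 357 in males and 160 to 286 in females, and Alb, at 253 and 215, lay within both ranges.

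Gc, a member of the albumin family that encodes the vitamin D-binding protein and lies on the same chromosome, starts at 89886924 on the minus strand. It had 268 and 254 H3K4me3 tags per kb, 339 and 238 H3K27ac tags per kb, and 94 and 67.96 H3K36me3 reads per kb in males and females. Its H3K4me3 ratios in the authors' deposited table are 0.51 and 0.46, without a call. Gc thus had denser H3K4me3 than Alb in both lists and, unlike Alb, a H3K36me3 island in both.

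Of 3 other genes expressed in fetal liver and low in the adult 2 were placed. These were Igf2, a fetal growth factor, and Dlk1, a membrane protein of fetal hepatoblasts. Both had H3K27me3 at the start in both lists, at 36.3 and 45.7 reads per kb for Igf2 and 26.8 and 36.9 for Dlk1. Neither had H3K4me3 or H3K27ac. A placed start of Igf2 also had H3K9me3, at 18.2 reads per kb in males and 17.25 in females. Afp had the reverse pattern in the male list, with H3K4me3 and H3K27ac and no H3K27me3, and H3K27ac alone of these in the female list. The male H3K4me3 peak of Afp has a false discovery rate of 25.4% in the authors' deposited table. Of genes that mark other liver cell types 4 of 12 were placed. These were Clec4f of Kupffer cells, Stab2 of sinusoidal endothelium, Epcam of bile duct cells and Lrat of stellate cells. All 4 had H3K27me3 in both lists, 3 had H3K4me3 in males and 2 in females, at 38.0 to 60.5 tags per kb, and only Stab2 had H3K27ac.

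**Figure D5:**
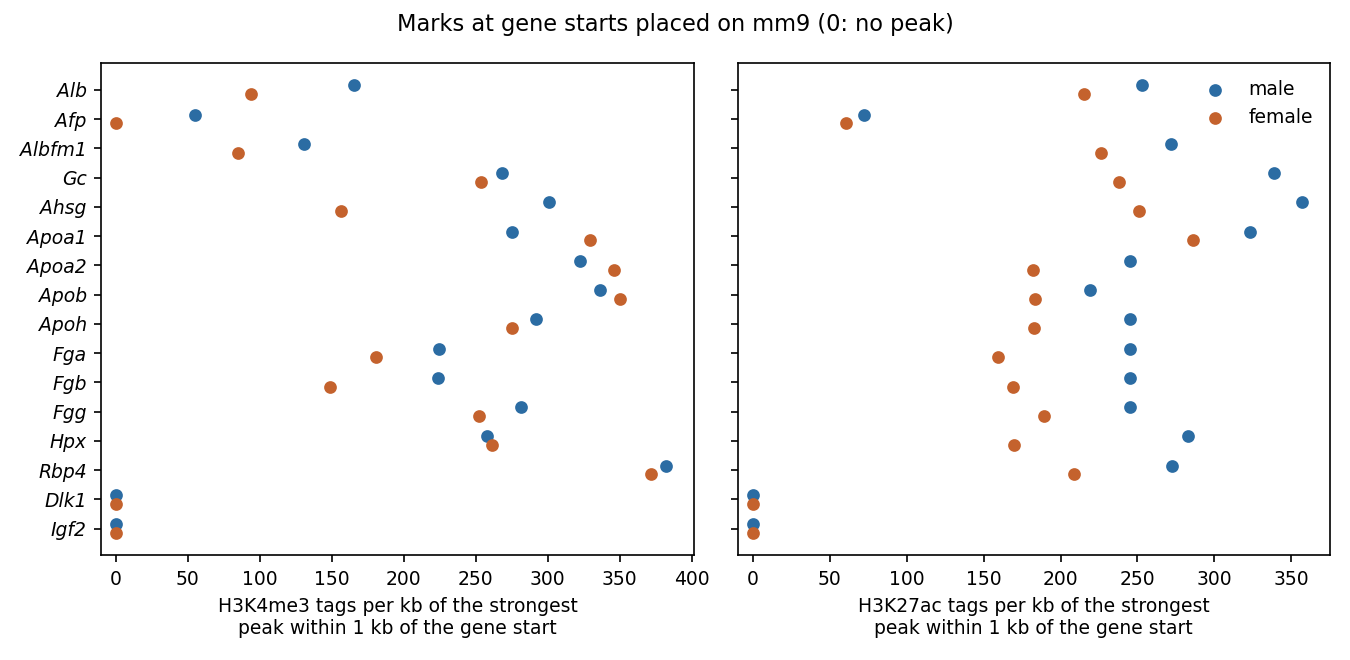
Points give tags per kb of the densest H3K4me3 (left) and H3K27ac (right) peak within 1 kb of each placed gene start, males in blue and females in orange, with 0 where there is no peak. By tags per kb, Alb is below the 10 plasma protein genes in H3K4me3 and among them in H3K27ac, and Dlk1 and Igf2 are at 0.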

How the data were processed

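Peak lists of 6 histone marks in male and female mouse liver were used as deposited, in mm9 coordinates as the files give them. The submitters' processing notes name Bowtie and SICER 1.1. For H3K36me3 the window was 200 bp and the gap 800 bp, and for H3K27me3 and H3K9me3 they were 400 and 2400 bp, per the labels. The headers of the other lists are those of MACS peaks, whose version is not given in the sources used. Per the file headers, the deposited values are counts of tags or reads (control reads too, for islands), a fold ratio over control, a p-value, a score of minus 10 times log10 p, a false discovery rate in percent, and for each peak a log2 male over female ratio with its p-value and call. How that ratio was normalised is unknown from these sources. The call equals a log2 ratio of at least 1 in size with p below 0.001 for 384017 of 384017 peaks in the authors' lists. In each H3K27ac list 17335 tag counts were deposited in rounded form, 0 of them in the window, so ranks for this mark are approximate.

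Counts were divided by width (reads or tags per kb) and ranked within a list. Peaks that cross a window or span edge counted by their share inside. A peak had a partner where it shared at least 1 bp with a peak of the opposite sex. Peaks named were those of H3K4me3, H3K27ac and H3K36me3 over the gene spans or starts, the strongest of each list and every one with a sex call; others are given by counts. The genes, lists and window were chosen with earlier results of these data known. The 1 IgG file with reads, of 11201113 reads, is labelled male, aged 7 to 8 weeks, and repeats an earlier record; its sequences of 35 bases placed RefSeq promoters on mm9, and no coordinate was converted. Python 3.11.15, pandas 2.3.3 and NumPy 2.4.6 were used, and the interval code was tested on simulated data.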

Additional observations from a re-analysis of the deposited data

How the results depend on the processing

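Each list is 1 pool, so leaving out a replicate was not possible. No paired analysis was possible because the lists carry no replicate numbers. The male and female values therefore rest on 1 list each, at differing depth and number of libraries, and their differences were not tested against the spread between animals. The alternatives left 32 values near those reported, moved 32 and reversed 1, and the causes were not tested.

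Ranked by covered bases instead of reads, the share of windows at or above the cluster was 0.687% and 1.26% for H3K4me1 (males, females), 0.529% and 3.35% for H3K4me3, and 11.1% and 17.7% for H3K36me3. With the better-scoring 50% of each list, 50 peaks lay in the window, and H3K4me1 covered 25.8% and 35.3%, H3K4me3 6.25% and 1.67%, H3K27ac 59.4% and 57.7%, and H3K36me3 40.7% and 29.5%. With a log2 threshold of 0.5 in the authors' deposited table, 23 peaks had a call, 18 of them male; for H3K4me1 these were 6 of 27 and 2 of 27, where 23.3% and 17.3% of the lists passed. The share of the list as strong as the strongest peak was, by total tags or reads, 2.53% and 1.93%, 2.34% and 27.1%, 0.122% and 0.0392%, and 6.76% and 2.17% in that order of marks. By the caller's score or fold it was 6.13% and 2.33%, 12.4% and 28.5%, 13.5% and 6.47%, and 15.9% and 5.95% respectively. By density it was 3.10% and 8.15%, 7.47% and 37.2%, 1.30% and 1.02%, and 0.302% and 0.336%. Centred on peaks present in both lists, the H3K4me1 female median log2 ratio of the authors' deposited table turned from 0.02 to -0.025, and 4 peaks in place of 5 passed the call thresholds, the H3K4me1 call being the one lost.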

Other observations

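Between Afp and Afm, the male and female lists shared a H3K27ac peak from the end of the Afp span toward the Afm start, with 823 tags or 116 per kb in males and 701 tags or 99.7 per kb in females. Its log2 ratios in the authors' deposited table are -0.29 and -0.28. A H3K4me3 peak of 78 tags lay inside it in the female list only, 23.6 to 25.3 kb after the Afp start, with -0.24 (log2) in the authors' deposited table, the only H3K4me3 value of the window below 0.

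Within the male H3K36me3 islands, the deposited control reads and the reads of the IgG file numbered 478 and 192 over Alb, 116 and 65 over Afp, and 173 and 88 over the first Afm island. Alb thus had the most reads of these 3 islands in both sources of control.

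GTTAAT also occurred before the start of Gc, 52 to 47 bases away. GTTAAT and TATAAA occurred together in 1.33% of all promoters searched. Afp, Afm and Albfm1 held both, and Alb held no TATAAA in the bases searched. The motifs were chosen after the sequences had been seen, so this share is no test of enrichment.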
